A study of Mus musculus with 8 samples.

Results

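Haemoglobin, the oxygen carrier of red blood cells, is a tetramer of alpha-type and beta-type chains, each holding a haem group. Haem is built from glycine and succinyl coenzyme A by a pathway whose entry enzyme has an erythroid form, Alas2, and a form used in other tissues, Alas1. Alpha- and beta-globin RNA has been found in mesencephalic dopaminergic neurons as well as in red cells, so Alas2 was followed here as a sign of blood RNA. Of the 7 genes chosen by symbol (Hba-a1, Hba-a2, Hbb-b1, Hbb-b2, Hbb-bs, Hbb-bt and Alas2), 4 were present under these symbols among the 21761 genes of the counts table: the alpha-globin gene Hba-a2, the beta-globin genes Hbb-bs and Hbb-b1, and Alas2. Hba-a1, Hbb-b2 and Hbb-bt were not analysed here. All 4 genes passed the filter on low counts.

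The libraries hold ribosome-bound RNA pulled down through a tagged ribosome (translating ribosome affinity purification, TRAP) from dopaminergic neurons of the C57BL/6 midbrain, with reads counted per gene. The MPTP group (4 libraries) had received MPTP-HCl intraperitoneally once a day for 5 days, 30 mg/kg as free base, and the saline group (4 libraries) the same course of saline, with both groups collected 4 days after the last injection. MPTP is a neurotoxin whose metabolite inhibits mitochondrial complex I in dopaminergic neurons. None of the sources used here gives the promoter that drives the tag, the number or age of the animals behind a library, or whether blood was flushed out before dissection.

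Library totals lay between 54192354 and 78892061 counts. The labelled cell type was checked by its markers: tyrosine hydroxylase, Th, averaged 2255 ± 315 CPM (counts per 1000000) in MPTP and 2651 ± 550 CPM in saline, and the dopamine transporter gene Slc6a3 averaged 2909 ± 267 CPM in the MPTP libraries, against 3417 ± 613 CPM in the saline libraries (± SD, n = 4 per group). Saline 3 stood apart, with the lowest dopaminergic marker score of the 8 libraries (7.61 as mean log2 CPM) and the highest astrocyte score (4.82). The fold changes of the chosen genes, the number of genes called and the most similar genes are therefore also given without it. The relations tested across libraries were not recomputed without it alone.

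The sequences upstream of 3 of the genes are shown so that alpha-globin, beta-globin and Alas2 can be compared at their starts. Whether these sequences bear on the counts was not tested. Each line gives the 120 bases before the RefSeq transcription start on the coding strand, 5′ to 3′, from the promoter table of GRCm38.p6. Capitals mark a TATA box core (TATAA), the CCAAT box, the CACCC box bound by Klf1-type factors and the GATAA element bound by Gata1-type factors, searched on both strands.
Hba-a2 (chr11:32296372-32296491, plus strand): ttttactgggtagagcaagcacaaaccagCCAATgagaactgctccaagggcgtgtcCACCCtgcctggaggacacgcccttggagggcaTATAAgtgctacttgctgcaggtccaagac
Hbb-bs (chr7:103827929-103828048, minus strand): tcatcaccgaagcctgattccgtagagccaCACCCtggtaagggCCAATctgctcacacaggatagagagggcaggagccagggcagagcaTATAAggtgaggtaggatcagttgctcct
Alas2 (chrX:150547297-150547416, plus strand): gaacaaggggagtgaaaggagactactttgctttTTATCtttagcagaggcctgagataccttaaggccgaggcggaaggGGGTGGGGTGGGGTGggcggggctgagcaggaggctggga
The windows of Hba-a2 and Hbb-bs each held the first 3 of these once, with the TATA box core starting 30 bases before the start of Hba-a2 and 29 before that of Hbb-bs. The Alas2 window held the CACCC box 3 times and the GATAA element once, all on the other strand, and neither of the other motifs. Of 32851 windows of the same length in the table, 11.8% held the TATA box core, 21.3% the CCAAT box, 31.7% the CACCC box and 10.5% the GATAA element.

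Paralogs limit what a count under 1 symbol means. The open reading frames of Hba-a2 and Hba-a1 in GENCODE vM21, 429 bases each, differ by 1 base, T381C counted from the A of the start codon. The bases around it are shown because they hold the 1 coding position at which a read could be told apart.
Hba-a2, chromosome 11, coding bases 361 to 401: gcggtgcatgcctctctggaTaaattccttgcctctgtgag
Hba-a1, chromosome 11, coding bases 361 to 401: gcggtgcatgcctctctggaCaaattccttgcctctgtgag
Of the 100-base windows of the Hba-a2 transcript, the length of a read here, 74.5% also occur in a Hba-a1 transcript. Hbb-bs and Hbb-bt, 444 coding bases each, likewise differ by 1 base (C417T), and 62.6% of the Hbb-bs windows occur in Hbb-bt.
Hbb-bs, chromosome 7, coding bases 397 to 437: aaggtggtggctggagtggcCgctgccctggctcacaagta
Hbb-bt, chromosome 7, coding bases 397 to 437: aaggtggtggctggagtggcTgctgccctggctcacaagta
No source used here says how reads that match both copies were counted, so the values of Hba-a2 and of Hbb-bs may hold reads of Hba-a1 and Hbb-bt, or lack reads assigned to neither.

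Hbb-b1 calls for the same care. Hbb-b1 and Hbb-b2 name the beta-globin pair of other mouse strains, whereas C57BL/6 mice carry Hbb-bs and Hbb-bt. GENCODE vM21 has no gene named Hbb-b1, and the RefSeq table puts it at 38285 to 39684 of a sequence listed under chromosome 7, apart from Hbb-bs at 103826523 to 103827928. The Hbb-b1 count was 0.903, 0.909, 0.925 and 0.908 of the Hbb-bs count in MPTP 1 to 4 and 0.889, 0.904, 0.902 and 0.922 in saline 1 to 4. This ratio varied by a factor of 1.04 over libraries in which Hbb-bs itself varied from 43.4 to 129 CPM. Hbb-b1 is therefore given beside Hbb-bs and not as a separate line of evidence.

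The alpha-globin gene Hba-a2 (Entrez 110257, chromosome 11, 32296489 to 32297298 of GRCm38, plus strand, protein-coding) held 8191, 6818, 3488 and 5587 counts in MPTP 1 to 4 and 3004, 1993, 4081 and 3181 counts in saline 1 to 4. Scaled to library size this was 99.9, 94.4, 51.6 and 74.0 CPM in MPTP and 45.9, 29.8, 64.8 and 60.5 CPM in saline. MPTP 1, 2 and 4 lay above every saline library, while MPTP 3 lay inside the saline range. The means were 80.0 ± 21.9 CPM in the MPTP libraries, against 50.3 ± 15.8 CPM in the saline libraries (± SD, n = 4 per group), which is a log2 fold change of 0.67 (SE 0.25, 95% interval 0.12 to 1.23, 1.59-fold). In edgeR's quasi-likelihood test the unadjusted p was 0.0224 and the adjusted p over all genes 0.492, so Hba-a2 did not pass.

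Beta-globin gave a smaller difference with more overlap. Hbb-bs (Entrez 100503605, chromosome 7, 103826534 to 103828096 of GRCm38, minus strand, protein-coding) stood at 129, 97.1, 56.0 and 74.1 CPM in MPTP 1 to 4 and at 67.3, 43.4, 87.5 and 46.5 CPM in saline 1 to 4. MPTP 1 and 2 exceeded the highest saline library, saline 3, and the other MPTP libraries did not. Its log2 fold change was 0.54 (SE 0.28, 95% interval -0.10 to 1.18, edgeR quasi-likelihood adjusted p = 0.627). Hbb-b1, at 116, 88.3, 51.8 and 67.3 CPM in MPTP and 59.8, 39.3, 78.9 and 42.9 CPM in saline, had a log2 fold change of 0.55 (adjusted p = 0.606 in the same test). In purified bulk RNA a higher count cannot be told apart between more cells or cell remnants that hold globin RNA and more of it per cell.

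**Figure D1:**
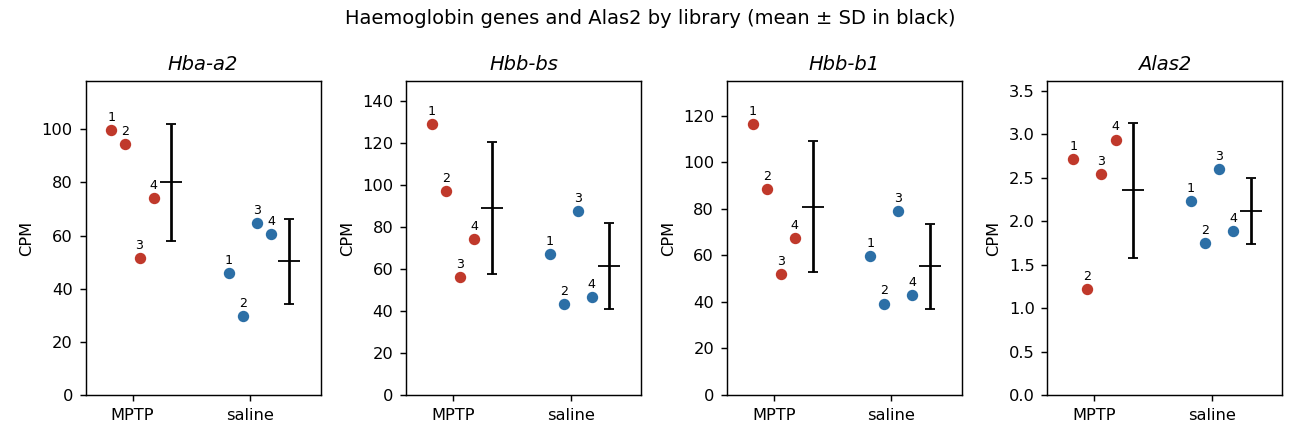
CPM of Hba-a2, Hbb-bs, Hbb-b1 and Alas2 (y axes, each from 0) in MPTP and saline libraries (x axes), with 1 point per library numbered by replicate and the mean ± SD in black. For the globin genes MPTP 1 and 2 lie above all saline libraries and MPTP 3 lies within them, while Alas2 has its lowest value in MPTP 2.

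None of the 4 genes passed the threshold (an adjusted p of 0.05 over all 15999 genes tested with edgeR), where 17 genes, 0.106% of those tested, did (0.075% higher and 0.0313% lower in MPTP). Without adjustment 1 of the 4 (Hba-a2) had a p under 0.05, higher in MPTP, against 8.78% of all genes tested in either direction and 4.28% higher. In 0 of the 4 genes were the groups free of overlap, against 4.19% of all genes tested. DESeq2 and limma voom did not call any of the 4 either. All 4 log2 fold changes were above 0, with a median of 0.55, whereas 8014 of the 15999 genes tested were above 0 and the median of all was 0.00. Markers of other cell types also lay to 1 side: 14 of 14 astrocyte genes (median 0.24) and 13 of 14 oligodendrocyte genes (median 0.21) were above 0, and 13 of 16 dopaminergic genes were below 0 (median -0.14). No gene of these lists passed, and their part in the globin difference was not tested. The 3 globin symbols are not independent, as shown above. Without saline 3 the log2 fold changes were 0.82 for Hba-a2 (adjusted p = 0.221), 0.77 for Hbb-bs (adjusted p = 0.247), 0.78 for Hbb-b1 (adjusted p = 0.221) and 0.27 for Alas2 (adjusted p = 0.757), all by edgeR.

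Adult globin RNA was abundant for its length. Per kilobase of exon, Hba-a2 averaged 97.6 CPM and Hbb-bs 97.8 CPM over the 8 libraries, higher than 97.3% of the 15848 tested genes with a known exon length in both cases. On this scale Th was at 1037 CPM per kilobase and Alas2 at 0.931. In each library the 3 globin symbols together took 0.0359%, 0.0279%, 0.0162% and 0.0214% of all counts in MPTP 1 to 4 and 0.0169%, 0.0109%, 0.0242% and 0.0145% in saline 1 to 4. Their summed level averaged 250 ± 80.4 CPM in the MPTP libraries, against 167 ± 49.7 CPM in the saline libraries (± SD, n = 4 per group). Leaving out Hbb-b1, it averaged 169 ± 52.6 CPM in the MPTP libraries, against 111 ± 32.4 CPM in the saline libraries.

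The globin genes also varied far more between libraries of 1 group than other genes of their level. The within-group SD of log2 CPM was 0.47 for Hba-a2, 0.50 for Hbb-bs and 0.48 for Hbb-b1. Among the 2183 genes within 0.5 log2 CPM of Hba-a2, 99.7% had a smaller SD, and among the 2047 genes near Hbb-bs 99.9% did. Alas2, with an SD of 0.45, lay in the middle of the 1053 genes of its own low level (49.3% had a smaller SD). Cytoglobin, Cygb, a globin of connective tissue cells and neurons, had an SD of 0.08 at a higher mean log2 CPM (7.17, against 5.93 for Hba-a2). Among the 1249 genes near its own level 14.4% had a smaller SD. Per kilobase Cygb stood at 61.9 CPM.

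**Figure D2:**
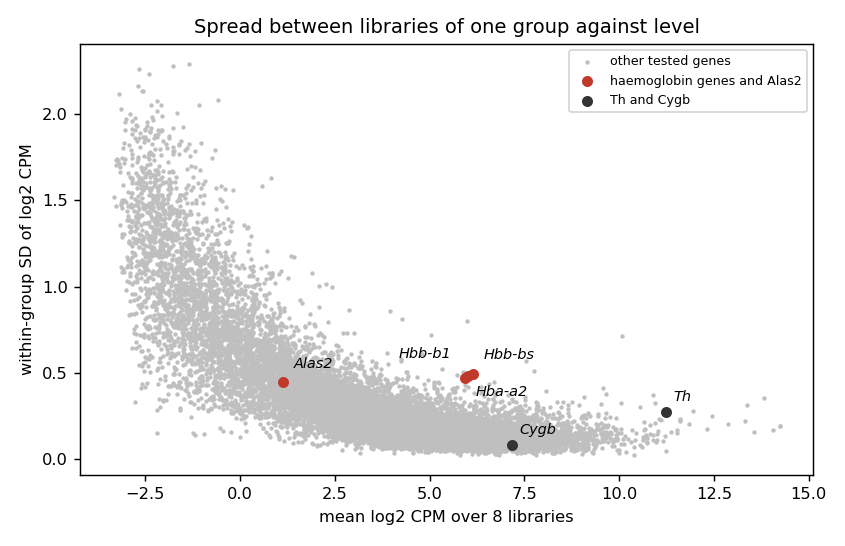
Within-group SD of log2 CPM (y axis) against mean log2 CPM over 8 libraries (x axis) for all tested genes in grey, with the haemoglobin genes and Alas2 in red and Th and Cygb in black. Hba-a2, Hbb-bs and Hbb-b1 sit at SDs of 0.47 to 0.50, above nearly all genes of their level, and Alas2 sits amid its neighbours.

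Alpha- and beta-globin did not keep a fixed proportion. Hba-a2 counts were 0.775, 0.972, 0.923 and 1.00 of the Hbb-bs counts in MPTP 1 to 4 and 0.683, 0.686, 0.741 and 1.30 in saline 1 to 4. Saline 4 was the exception among saline libraries, with the highest proportion of alpha-globin of all 8. Over the 8 libraries log2 CPM of Hba-a2 and Hbb-bs gave Pearson's r = 0.83 (exact permutation p = 0.0103, adjusted p = 0.0931 over 27 relations) and Spearman's rho = 0.88 (exact permutation p = 0.00724, adjusted p = 0.138). Without the 2 libraries farthest from the median of Hbb-bs, MPTP 1 and saline 2, r was 0.63, and after subtracting the group means it was 0.76. The relation thus failed the correction for 27 relations.

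Embryonic beta-type globin genes, which are silent in adult red cells, were at or near 0, except for Hbb-bh1 in 1 library. Hbb-y had 6 counts in MPTP 2 and 0 in the other libraries, and Hbb-bh2 had 3 in MPTP 1 and 7 in MPTP 4. Hbb-bh1 had 98 counts in MPTP 1, 7 in MPTP 4 and 2 in saline 4, and 0 elsewhere. A count of 0 allows up to 3 counts. The embryonic alpha-type gene Hba-x was counted in every library, with 72, 65, 28 and 48 counts in MPTP 1 to 4 and 24, 21, 36 and 23 in saline 1 to 4. It stayed between 7.23 and 10.5 counts per 1000 Hba-a2 counts (8.74 ± 0.622 in the MPTP libraries, against 8.64 ± 1.42 in the saline libraries, ± SD, n = 4 per group), and the longest run its transcript shares with that of Hba-a2 is 18 bases. The theta-globin genes Hbq1a and Hbq1b together varied more, with 19.7 to 34.1 per 1000 Hba-a2 counts in MPTP and 7.86 to 42.6 in saline.

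**Figure D3:**
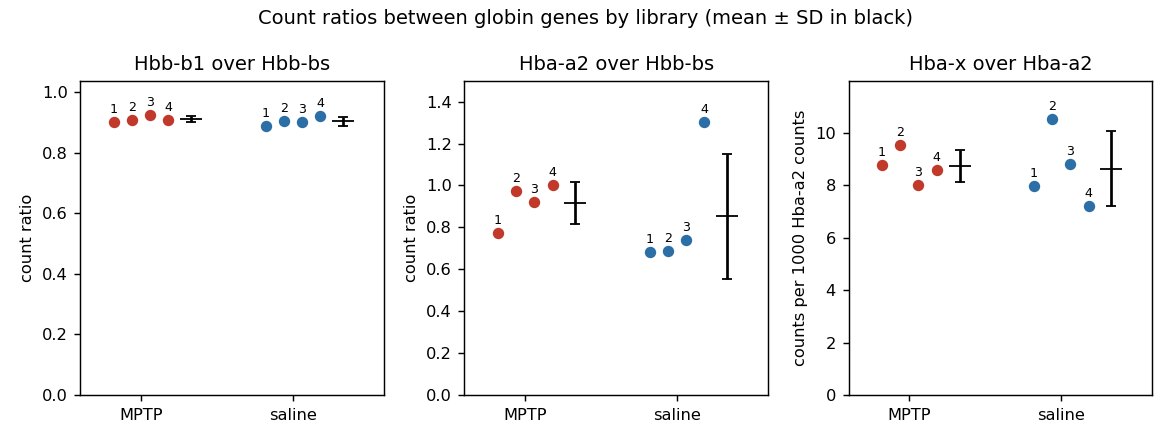
Count ratios between globin genes (y axes from 0: Hbb-b1 over Hbb-bs, Hba-a2 over Hbb-bs, and Hba-x per 1000 Hba-a2 counts) in MPTP and saline libraries (x axes), with 1 numbered point per library and the mean ± SD in black. The first ratio is nearly flat between 0.889 and 0.925, while saline 4 stands alone at 1.30 in the second.

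Other globins outside the red cell were measured beside them. Neuroglobin, Ngb, a globin of neurons, averaged 10.5 ± 1.64 CPM in the MPTP libraries, against 7.40 ± 1.52 CPM in the saline libraries (± SD, n = 4 per group), which is a log2 fold change of 0.51 (SE 0.18, unadjusted p = 0.0117, edgeR adjusted p = 0.448). Cygb had a log2 fold change of 0.13 (edgeR adjusted p = 0.669) and myoglobin, Mb, one of -0.05 (edgeR adjusted p = 0.968). Of these 3 genes none passed, and Ngb alone had an unadjusted p under 0.05.

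Alas2 (Entrez 11656, chromosome X, 150547375 to 150570638 of GRCm38, plus strand, protein-coding) was low and ordered the libraries differently from the globin genes. It held 223, 88, 172 and 222 counts in MPTP 1 to 4 and 146, 117, 164 and 99 in saline 1 to 4, or 2.72, 1.22, 2.55 and 2.94 CPM in MPTP and 2.23, 1.75, 2.60 and 1.88 CPM in saline. MPTP 2, the library with the second highest globin level, had the lowest Alas2 of all 8. The log2 fold change was 0.15 (SE 0.32, 95% interval -0.52 to 0.83, edgeR adjusted p = 0.922). Log2 CPM of Alas2 gave r = 0.06 with Hba-a2 (exact permutation p = 0.875) and r = 0.17 with Hbb-bs (exact permutation p = 0.687), with rho = 0.38 for both (exact permutation p = 0.360, adjusted p = 0.607), and adjusted p values of 0.933 and 0.930 for r over the 27 relations. Without the 2 libraries farthest from the median of Alas2, MPTP 2 and saline 2, r was 0.51 and 0.66, so the lack of a relation rests in part on those libraries.

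Set against the 3 globin symbols, Alas2 amounted to 7.88, 4.35, 16.0 and 13.7 counts per 1000 globin counts in MPTP 1 to 4 and to 12.9, 15.6, 11.3 and 12.6 in saline 1 to 4. The saline libraries kept within a factor of 1.38 and the MPTP libraries spread over a factor of 3.67. The exact 95% counting intervals of MPTP 1 (6.87 to 8.98) and MPTP 2 (3.49 to 5.37) lay below those of the other 6 libraries, the lowest of which began at 9.60. These intervals cover counting error only, since amplified reads without molecular identifiers are not independent molecules. The group means were 10.5 ± 5.31 in the MPTP libraries, against 13.1 ± 1.80 in the saline libraries (± SD, n = 4 per group), a difference smaller than the spread among MPTP libraries. Because Hbb-b1 and Hbb-bs may share reads, the sum may count beta-globin more than once. Without Hbb-b1 the values were 11.9, 6.36, 23.7 and 19.9 in MPTP 1 to 4 and 19.7, 23.9, 17.1 and 17.6 in saline 1 to 4, with MPTP 1 and MPTP 2 again the lowest.

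**Figure D4:**
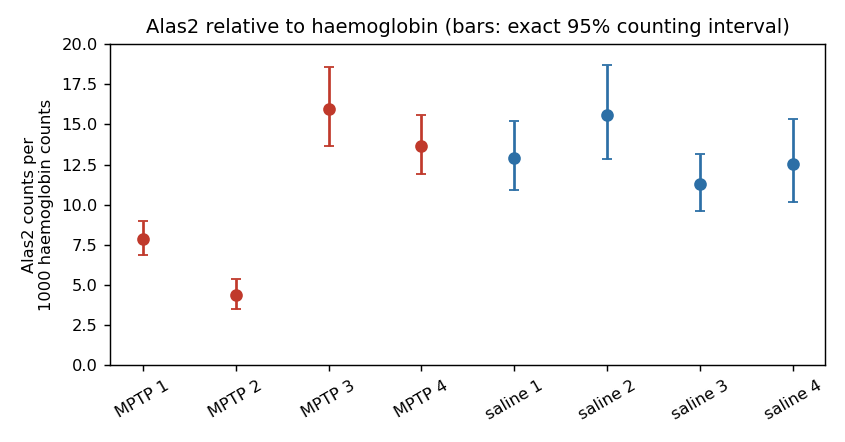
Alas2 counts per 1000 haemoglobin counts (y axis from 0) in each of the 8 libraries (x axis), with exact 95% counting intervals. MPTP 1 and MPTP 2 lie at 7.88 and 4.35, below the other 6 libraries at 11.3 to 16.0.

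The genes named here that define the red cell lineage had few counts in any library. Slc4a1, the band 3 anion exchanger and a chief membrane protein of the red cell, had 0 counts in the MPTP libraries and 11, 0, 0 and 1 in saline 1 to 4. The erythroid transcription factor genes Klf1 and Gata1 had 0 to 23 and 0 to 31 counts in MPTP and 0 to 6 and 0 to 13 counts in saline, and the membrane skeleton gene Epb42 (listed under its older symbol) had at most 3 counts in MPTP and 2 in saline. Of the 20 genes of the erythroid list, 19 were in the table and 6 were tested: Alas2, Rhd, Epor, Tal1, Tmcc2 and Ank1. The other 13 together held 28, 77, 64 and 22 counts in MPTP 1 to 4 and 58, 20, 46 and 35 in saline 1 to 4. None of the 6 tested genes passed or had an unadjusted p under 0.05 (5 with a log2 fold change above 0 and 1 below, median 0.14). Rhd had the smallest p, with 42, 51, 42 and 45 counts in MPTP 1 to 4 and 13, 15, 18 and 28 in saline 1 to 4. Its log2 fold change was 0.98 (SE 0.61, unadjusted p = 0.128, edgeR adjusted p = 0.670). Epor alone was below 0, at -0.36 (edgeR adjusted p = 0.700). Ank1, the gene of ankyrin-1, which neurons also express, accounted for 6800 to 10511 counts in every library.

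Of 20 blood leukocyte genes 4 were tested, with a median log2 fold change of -0.54, and the list summed to 176 to 318 counts in MPTP and 150 to 378 in saline. None passed, and the 2 with an unadjusted p under 0.05 had opposite signs. Ly6c2, a surface marker of monocytes, had a log2 fold change of 1.84 (unadjusted p = 0.0132, edgeR adjusted p = 0.451), and Cd3e, a T cell receptor subunit gene, one of -2.12 (unadjusted p = 0.0473, edgeR adjusted p = 0.558). Of 10 platelet genes 6 were tested, with a median log2 fold change of -0.22 and none called. The platelet list summed to 3921 to 6002 counts in MPTP and 3998 to 5599 in saline. Most of this was Gp1bb, a subunit gene of the platelet receptor for von Willebrand factor, at 62.4 ± 11.4 CPM in the MPTP libraries and 64.1 ± 10.4 CPM in the saline ones. Pf4 and Ppbp, which encode platelet granule chemokines, averaged at most 1.28 CPM in either group. Over the 8 libraries these list scores gave r between -0.25 and 0.26 with Hba-a2 and Hbb-bs (exact permutation p from 0.531 to 0.811, adjusted p of at least 0.835) and rho between -0.24 and 0.14 (exact permutation p from 0.582 to 0.882, adjusted p of at least 0.786). Without the 2 libraries farthest from each score's median, r lay between -0.47 and -0.01.

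Of the marker scores, those of vessel cells had the highest Pearson correlations with beta-globin, none of which passed the correction. The endothelial score (mean log2 CPM of 14 genes) was 0.94, 1.07, 0.23 and 0.47 in MPTP 1 to 4 and 0.70, 0.36, 1.03 and 0.07 in saline 1 to 4. It was highest in MPTP 1, MPTP 2 and saline 3, the libraries with the most Hbb-bs. Hbb-bs and the endothelial score gave r = 0.86 (exact permutation p = 0.00819) and rho = 0.83 (exact permutation p = 0.0154), with adjusted p of 0.0931 and 0.138 over 27 relations. Leaving out MPTP 2 and saline 4, the farthest from the median score, r was 0.81, and after subtracting the group means 0.91. The mural score (10 genes of pericytes and smooth muscle) gave r = 0.89 with Hbb-bs (exact permutation p = 0.00387, adjusted p = 0.0931) and rho = 0.79 (exact permutation p = 0.0279, adjusted p = 0.189), with r = 0.75 without MPTP 1 and saline 3. For Hba-a2 r was 0.55 with the endothelial score and 0.61 with the mural score (exact permutation p = 0.155 and 0.112, adjusted p = 0.322 and 0.286), and rho was 0.57 and 0.50 (exact permutation p = 0.151 and 0.216, adjusted p = 0.408 and 0.449). Without the 2 farthest libraries these r were 0.57 and 0.42. No relation with a marker score passed the correction, and the part of vessel cells in the globin counts was not tested.

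**Figure D5:**
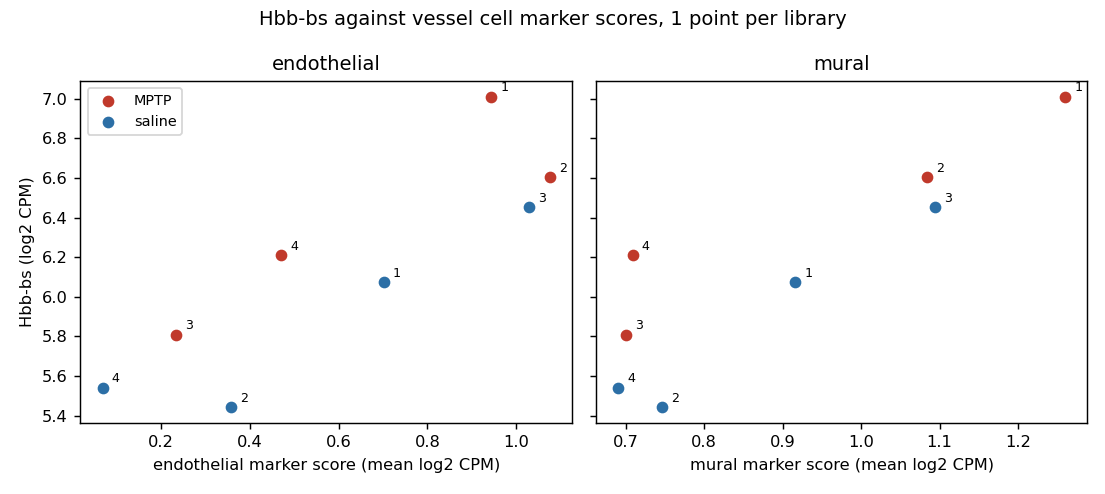
Log2 CPM of Hbb-bs (y axis) against the endothelial and the mural marker score (x axes, mean log2 CPM of 14 and 10 genes), 1 numbered point per library, MPTP in red and saline in blue. MPTP 1, MPTP 2 and saline 3 are highest on both axes, with r = 0.86 for the endothelial and 0.89 for the mural score over 8 libraries.

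The vessel markers themselves were low, and none of their genes passed the test between groups. The endothelial list summed to 2340 to 3618 counts in MPTP and 1516 to 2811 in saline, and 7 of its 14 genes had a log2 fold change above 0 (median -0.03). The mural list summed to 1782 to 3106 counts in MPTP and 1427 to 2154 in saline (5 of 10 above 0, median 0.02). Slc2a1 was the highest of the endothelial list, with means of 18.9 CPM in MPTP and 15.2 CPM in saline. Notch3 was the highest of the mural list, with means of 13.7 CPM in MPTP and 13.4 CPM in saline. Every other gene of both lists averaged at most 4.45 CPM in either group, so the scores rest mostly on genes with low counts. Of the 14 endothelial genes, 3 had an unadjusted p under 0.05, all higher in MPTP, against 4.28% of all genes tested. Vwf, the gene of von Willebrand factor, averaged 2.28 ± 0.936 CPM in the MPTP libraries, against 0.879 ± 0.367 CPM in the saline libraries (± SD, n = 4 per group), which is a log2 fold change of 1.37 with an edgeR adjusted p of 0.415. The others were Ly6c1 (log2 fold change 1.17, edgeR adjusted p = 0.471) and Slc2a1 (0.32, edgeR adjusted p = 0.508). Slco1a4, next by p, was lower in MPTP, with a log2 fold change of -0.70 (unadjusted p = 0.0584, edgeR adjusted p = 0.587). The microglia score gave r = 0.76 with Hbb-bs (exact permutation p = 0.0297, adjusted p = 0.160, 0.59 without the 2 farthest libraries) and rho = 0.86 (exact permutation p = 0.0107, adjusted p = 0.138). For the astrocyte score r was 0.71 (exact permutation p = 0.0511, adjusted p = 0.197, 0.30 without the 2 farthest) and rho 0.64 (exact permutation p = 0.0962, adjusted p = 0.345). The oligodendrocyte score gave r = 0.65 with Hbb-bs (exact permutation p = 0.0802, adjusted p = 0.241) and 0.60 with Hba-a2 (exact permutation p = 0.116, adjusted p = 0.286). The dopaminergic score ran the other way, with r = -0.69 for Hbb-bs (exact permutation p = 0.0587, adjusted p = 0.198, -0.67 without the 2 farthest) and rho = -0.76 (exact permutation p = 0.0368, adjusted p = 0.198). Hba-a2 had its highest r with the microglia score, at 0.76 (exact permutation p = 0.0280, adjusted p = 0.160, 0.32 without the 2 farthest), with rho = 0.74 (adjusted p = 0.206). With the astrocyte score Hba-a2 gave r = 0.71 (exact permutation p = 0.0461, adjusted p = 0.197, 0.45 without the 2 farthest) and rho = 0.52 (adjusted p = 0.442). The part of these cell types in the globin counts was not tested.

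Genes of haem synthesis were expressed throughout, with differences centred near 0. All 17 were tested, 10 with a log2 fold change above 0 and 7 below, with a median of 0.04 and none called. Alas1, the ubiquitous entry enzyme, averaged 17.9 ± 3.24 CPM in the MPTP libraries, against 17.9 ± 2.51 CPM in the saline libraries (± SD, n = 4 per group), which is a log2 fold change of 0.00, and per kilobase lay above Alas2 (2.90 against 0.931 CPM). Slc25a28, the mitochondrial iron importer mitoferrin-2, had the smallest p, with a log2 fold change of 0.36 (unadjusted p = 0.0162, edgeR adjusted p = 0.475). The late enzyme ferrochelatase, Fech, had a log2 fold change of 0.11 (edgeR adjusted p = 0.776).

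No gene that handles free haem or iron passed the test. Of 11 genes of haem and haemoglobin clearance 10 were tested, 5 with a log2 fold change above 0 and 5 below (median -0.04). Lrp1, the receptor for haemopexin-bound haem, averaged 62.2 ± 4.63 CPM in the MPTP libraries, against 49.1 ± 9.52 CPM in the saline libraries (± SD, n = 4 per group, log2 fold change 0.34, edgeR adjusted p = 0.449). The haem exporter Flvcr1, listed as Mfsd7b, had 0.34 (edgeR adjusted p = 0.472). Hp, the gene of the haemoglobin-binding protein haptoglobin, was low, at 0.130 ± 0.0854 CPM in the MPTP libraries and 0.406 ± 0.366 CPM in the saline ones (log2 fold change -1.63, edgeR adjusted p = 0.606). Of 10 iron genes 6 had a log2 fold change above 0 and 4 below (median 0.11). The ferritin heavy chain gene Fth1 was at 1201 ± 107 CPM in the MPTP libraries, against 937 ± 143 CPM in the saline libraries (± SD, n = 4 per group, log2 fold change 0.36, unadjusted p = 0.00453, edgeR adjusted p = 0.415), and the light chain gene Ftl1 had 0.24 (edgeR adjusted p = 0.492). Aco1, the gene of iron regulatory protein 1, had -0.28 (edgeR adjusted p = 0.606).

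Of 18 listed regulators of globin genes, 15 were tested, among them the erythroid factor gene Tal1 (log2 fold change 0.22, edgeR adjusted p = 0.815), and Klf1, Gata1 and Nfe2 were below the filter. None passed. Bcl11a, a repressor of fetal globin genes that nigral neurons also express, averaged 32.7 ± 2.13 CPM in the MPTP libraries, against 26.5 ± 1.90 CPM in the saline libraries (± SD, n = 4 per group, log2 fold change 0.30, unadjusted p = 0.00789, edgeR adjusted p = 0.415). Sox6, its partner in globin repression and a marker of nigral neurons, averaged 47.7 ± 2.08 CPM in the MPTP libraries, against 57.7 ± 8.45 CPM in the saline libraries (± SD, n = 4 per group, log2 fold change -0.27, edgeR adjusted p = 0.490). The chromatin remodeller gene Atrx, needed for full alpha-globin expression in humans, had -0.27 (edgeR adjusted p = 0.506).

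The genes whose log2 CPM most resembled each member over the 8 libraries lay outside the 16 lists, which cover few of the genes compared. For Hba-a2 these were Sidt1, Lrch3 and Gpr133, with Pearson's r of 0.98, 0.97 and 0.97 among the 12159 genes whose mean log2 CPM reached 1. For Hbb-bs and Hbb-b1 they were Cabp1, Slc38a2 and Nphs1 (r between 0.96 and 0.97). For Alas2 they were Asxl3, Bcdin3d and Hmgxb4 (r of 0.97, 0.95 and 0.94). These values describe 8 points that share their libraries, and none of the 9 genes passed the test between groups. All 9 had log2 fold changes between 0.08 and 0.31, smaller than those of the members they resembled.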

How the data were processed

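RNA from midbrain dopaminergic neurons was measured in 8 libraries, 4 per treatment. The deposited file is a single table of raw, unnormalised counts with a row for each gene. TopHat2 2.0.8 and mm10 were used, per the submitters' processing notes. No source used here names the counting tool, its annotation or its strand setting. Symbols turned into dates (27) were restored by Entrez identifier, and 90 genes without a symbol (0.0505% to 0.0560% of counts) were kept under their Entrez identifier.

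From these deposited counts, edgeR 4.0.16 in R 4.3.3 (TMM, filterByExpr, robust quasi-likelihood F-test, no covariate, Benjamini-Hochberg adjustment over 15999 genes) compared MPTP with saline. Fold changes are on the log2 scale, MPTP minus saline. A prior count of 2 entered log2 CPM. The gene test was checked on simulated counts. Marker scores are means of log2 CPM. Relations across libraries used exact two-sided permutation tests over all pairings, adjusted over 27 relations. Gene lengths and positions are from GENCODE vM21, upstream sequences from RefSeq GRCm38.p6.

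Alternatives were DESeq2 1.42.0, limma 3.58.1 voom, other scalings and filters, a replicate block and leaving out each library. All members were named, with the 3 genes most like each and up to 4 genes of smallest p per list, and Alas1, Ank1 and the remaining globin genes for their roles, after their values were seen. Some genes that this rule names are not reported here. The members and lists were chosen with earlier results of these data known. The labels do not say that replicates are separate animals, so a p-value here reflects library-to-library spread, which may be technical. Libraries of each group differed from one another by more than sampling noise.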

Additional observations from a re-analysis of the deposited data

Results flagged for a closer look

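In saline 4 the ratio of Hba-a2 to Hbb-bs counts was 1.30, far from the other saline libraries, at 0.683, 0.686 and 0.741. It was the 1 value set apart in this way among 18 groups of 4 libraries examined, where chance sets apart about 1 in 20. Saline 4 also had the smallest library total and the lowest theta-globin counts relative to Hba-a2 (7.86 per 1000). Whether these go together was not tested.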

How the results depend on the processing

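None of the 4 genes passed the threshold, and no log2 fold change turned sign, under any alternative run (15 for each globin gene and 14 for Alas2, which a mean CPM of at least 5 removed). The log2 fold change of Hba-a2 ranged from 0.49 to 0.83 (adjusted p 0.221 to 0.845), with an unadjusted p under 0.05 in 12 alternatives. Those of Hbb-bs ranged from 0.31 to 0.77 (adjusted p 0.247 to 0.875), of Hbb-b1 from 0.32 to 0.78 and of Alas2 from 0.03 to 0.37. Hbb-bs was lowest without MPTP 1. Summing both beta-globin genes gave a log2 fold change of 0.55, and a sum for alpha-globin held Hba-a2 alone. The 17 genes called in all were 11 with a mean CPM of at least 5, 55 with DESeq2 and 8 to 297 without 1 library, 297 being without saline 3, 8 without MPTP 4 and 10 without saline 1. Same-numbered libraries did not deviate together (correlations of -0.12 to 0.04). With the replicate block 14 genes were called and the log2 fold changes of Hba-a2 and Hbb-bs were 0.69 and 0.54 (adjusted p = 0.661 and 0.681). For each member 1 of the 3 most similar genes stayed among the first 3 without saline 3. By Spearman's rho all 3 stayed for Alas2 and none for the globin genes, where rho takes few distinct values with 8 libraries. The 13 red cell genes below the filter have too few counts for their folds to be read.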
